A study of Homo sapiens with 2 samples.

Results

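Facilitative glucose transporters, encoded by the SLC2A genes, were examined in the human glioblastoma cell line U251, given either the solvent DMSO or 5 µM of the Gamitrinib G-TPP for 6 h. The 8 genes described are SLC2A1, SLC2A3, SLC2A4, SLC2A6, SLC2A8, SLC2A10, SLC2A12 and SLC2A13, out of 14 SLC2A carrier genes and 18417 genes in all that could be named from a probe set with 1 gene symbol. They were chosen by symbol with the intensities of these same arrays already known, so their values are a description and carry no test. Both groups are cultures of the same line in high-glucose DMEM, and each is represented by 1 Affymetrix array made from 6 µg of total RNA. G-TPP couples a geldanamycin-type Hsp90 inhibitor to triphenylphosphonium, a cation that draws it into mitochondria, and the study asked how transcripts respond when the Hsp90 chaperones there are targeted. Inhibition of the chaperones was not measured in these data. With 1 array per group there is no replicate check, no standard error and no p-value, and "higher" and "lower" refer to these 2 arrays.

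SLC2A proteins, the GLUT family, are membrane carriers with many transmembrane helices that let glucose and related sugars or polyols move down their gradient without using ATP. The family is divided by sequence into class I, the classical glucose carriers, class II, which includes fructose and urate carriers, and class III, whose members often sit on intracellular membranes and include carriers for other substrates. In glial tumours, as in many tumours, uptake through GLUT1 and GLUT3 feeds glycolysis, and transcription, traffic between endosomes and the cell surface, and degradation all set how much carrier is active.

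Of the 8 transporter genes, SLC2A12 was far lower in the G-TPP array, SLC2A3 was moderately higher, and the other 6 differed by less than 1.5-fold. SLC2A12 was the 1 gene whose intensity was lower by 2-fold or more, and no gene was higher by as much. Each gene has 1 probe set on the array, so no value has a check by another probe set. Of all 11091 genes that passed a brightness filter (an intensity of 239.2 in the brighter array), 0.55% were at least 2-fold lower and 2.8% at least 2-fold higher. At 1.5-fold, SLC2A12 was lower and SLC2A3 higher, against 3.23% and 7.37% of all genes past the filter. These counts concern genes picked with the values in view, and nothing is read from their share. Of the 8 log2 differences (G-TPP minus DMSO), 4 were above 0 and 4 below, with a median of -0.03, while over all 18417 named genes the median was -0.06 and 39.2% were above 0.

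**Figure D1:**
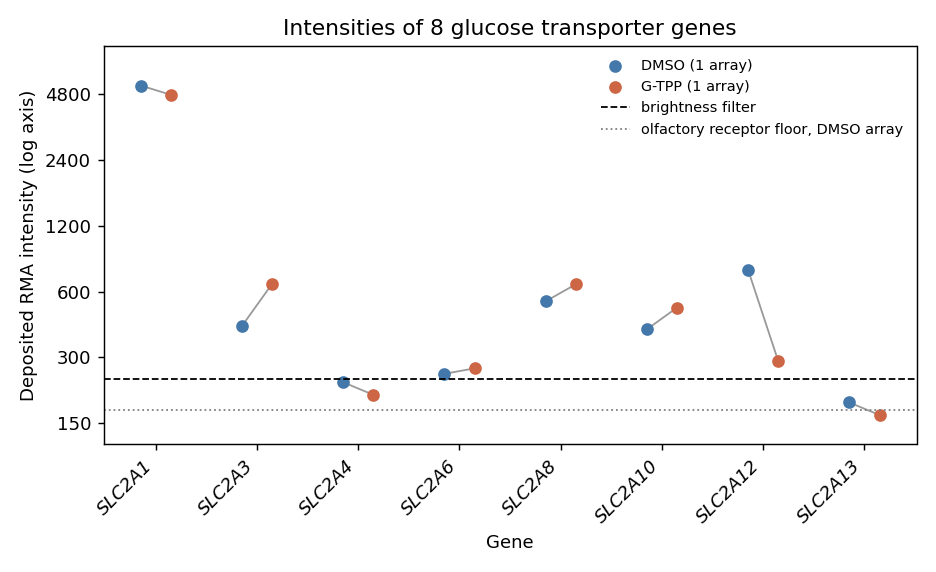
Deposited RMA intensity (log axis) of the 8 transporter genes in the DMSO array (blue) and the G-TPP array (orange), 1 array each, joined by a grey line. The dashed line is the brightness filter of 239.2 and the dotted line the floor of 172.9 taken from olfactory receptors in the DMSO array. SLC2A12 reads 756.6 with DMSO and 287.2 with G-TPP, and SLC2A3 reads 416.7 and 651.7. Levels of different genes are not comparable, because probe sets differ in response.

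Among the class I genes, SLC2A1 encodes GLUT1, the carrier of basal glucose uptake in most cells and in the blood-brain barrier. Its probe set read 5269 with DMSO and 4775 with G-TPP, 1.103-fold lower (log2 difference -0.14). Both values lay far above a floor set at the 95th percentile of 338 olfactory receptor genes, whose expression is largely confined to the nose and which read 172.9 or less in the DMSO array and 174.3 or less in the G-TPP array at that percentile. They were 30.5 times the floor with DMSO and 27.4 times with G-TPP, so dimness does not limit this comparison. The SLC2A1 difference lay inside the spread of the olfactory receptors, whose log2 differences had a standard deviation of 0.19. That spread is a scale for array noise that leaves out differences between cultures. The receptors' median intensities were 68.3 with DMSO and 64.6 with G-TPP. Their spread may therefore not hold for a probe set as bright as that of SLC2A1.

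SLC2A3 encodes GLUT3, the high-affinity carrier of neurons that many gliomas also make. Its probe set (7960865) read 416.7 with DMSO and 651.7 with G-TPP. It was thus 1.56-fold higher (log2 difference 0.65). Both arrays were above the floor, by 2.41 times with DMSO and 3.74 times with G-TPP. Among the 11091 genes past the filter, 700 had a higher log2 difference. The next gene on its chromosome, SLC2A14, encodes a carrier nearly identical to GLUT3, and its own probe set read 254.1 with DMSO and 285.1 with G-TPP, which is 1.12-fold higher. Near-identical copies can share probe signal, so how the difference divides between SLC2A3 and SLC2A14 is uncertain.

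SLC2A4 encodes GLUT4, which insulin brings to the surface of fat and muscle cells. It read 230.6 with DMSO and 201.7 with G-TPP, 1.14-fold lower, and was under the brightness filter in both arrays. These values were 1.33 and 1.16 times the floor. At this brightness the probe set lies too near the floor for a fold to be read with any weight. Of 8 marker genes of fat and muscle, 5 were under the floor in both arrays and 2 passed the filter, ACTA1, the actin of skeletal muscle, and PLIN1, the coat protein of fat droplets.

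The class III genes gave the lowest value as well as several slightly high ones. SLC2A12 encodes GLUT12, a carrier first found in a breast cancer line and present in muscle, fat and heart, where insulin can also recruit it. Its probe set (8129666) read 756.6 with DMSO and 287.2 with G-TPP, 2.63-fold lower (log2 difference -1.40). The DMSO value was 4.38 times the floor and the G-TPP value 1.65 times, so the fold is a ratio of readings that were both above it, although signal left from background pulls such ratios towards 1. Only 13 of the 11091 genes past the filter had a lower log2 difference. In RNA of a whole culture, fewer cells that make the transcript and less transcript per cell cannot be told apart.

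SLC2A10 encodes GLUT10, which has been placed in the endoplasmic reticulum and mitochondria as a carrier of oxidised vitamin C and whose loss causes arterial tortuosity syndrome. It read 402.2 with DMSO and 506.8 with G-TPP, which is 1.26-fold higher (log2 difference 0.33). SLC2A8, which encodes the intracellular carrier GLUT8 held inside cells by a dileucine signal, read 540.7 and 648.0, 1.199-fold higher (log2 difference 0.26). SLC2A6, which encodes the lysosomal carrier GLUT6, read 251.9 and 266.9, 1.06-fold higher (log2 difference 0.08). All 3 were above the filter and higher in the G-TPP array, but none reached 1.5-fold. SLC2A6 lay only just over the filter, at 1.46 times the floor with DMSO and 1.53 times with G-TPP. Its log2 difference ran from 0.08 to 0.18 over the settings tried. That is under the olfactory receptors' standard deviation of 0.19, so it carries little weight.

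SLC2A13 encodes HMIT, a proton-coupled carrier of myo-inositol rather than of glucose, known mainly from brain. It read 186.3 with DMSO and 163.1 with G-TPP, 1.14-fold lower (log2 difference -0.19). It was under the filter in both arrays, and with G-TPP under the floor, at 0.94 times. Its reading with DMSO exceeded the floor by a small margin, at 1.08 times, so a level of the transcript was barely measurable.

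Because SLC2A12 stood apart from the other class III genes, the 250 bases before its annotated start are shown beside those of SLC2A10 and SLC2A8. These 2 were 1.26-fold and 1.199-fold higher with G-TPP. The windows are RefSeq sequences of build GRCh38.p14, written 5′ to 3′ in the gene's direction. Of the 8 genes, 6 matched the promoter table used, and SLC2A3 and SLC2A4 had no entry there. SLC2A3, which had the highest log2 difference of the 8, is thus not part of the comparison. Capitals mark a match, on either strand, to any of 7 motifs: the GC box GGGCGG bound by Sp1-type factors, the CCAAT box CCAAT, the TATA box TATAAA, the E-box CACGTG, the hypoxia response core ACGTG, which an E-box also contains, the cyclic AMP response core TGACG and the C/EBP-ATF composite element TGATGNAAT.
SLC2A12, chr6:134052625-134052874 on the minus strand: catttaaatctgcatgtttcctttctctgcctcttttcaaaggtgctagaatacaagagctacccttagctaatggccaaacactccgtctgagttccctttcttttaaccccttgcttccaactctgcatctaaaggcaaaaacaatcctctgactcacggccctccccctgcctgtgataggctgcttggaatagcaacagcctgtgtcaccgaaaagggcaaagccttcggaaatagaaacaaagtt
SLC2A10, chr20:46709399-46709648 on the plus strand: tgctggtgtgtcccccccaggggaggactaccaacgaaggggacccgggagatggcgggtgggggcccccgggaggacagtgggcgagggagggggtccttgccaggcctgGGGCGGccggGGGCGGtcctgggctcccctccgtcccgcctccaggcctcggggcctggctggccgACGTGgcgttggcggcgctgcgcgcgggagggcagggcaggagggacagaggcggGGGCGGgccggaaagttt
SLC2A8, chr9:127396919-127397168 on the plus strand: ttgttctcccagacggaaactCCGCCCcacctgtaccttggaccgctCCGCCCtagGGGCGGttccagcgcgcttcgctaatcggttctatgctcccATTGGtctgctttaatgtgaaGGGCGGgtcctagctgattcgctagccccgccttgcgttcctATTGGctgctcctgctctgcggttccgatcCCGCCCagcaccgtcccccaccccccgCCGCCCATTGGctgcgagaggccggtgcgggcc

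The SLC2A12 window held none of the 7 motifs and had a GC content of 46.0%. SLC2A10 held 3 GC boxes and 1 hypoxia response core at a GC content of 76.8%, and SLC2A8 held 6 GC boxes and 3 CCAAT boxes at 65.2%. The median over the 35116 promoters of the table was 58.0%, with quartiles of 46.4% and 68.0%. The GC content of SLC2A12 thus lay close to the lower quartile. GC boxes were in 42.6% of those promoters, CCAAT boxes in 32.0%, cyclic AMP response cores in 21.2%, hypoxia response cores in 18.5%, TATA boxes in 10.7%, E-boxes in 6.34% and the C/EBP-ATF composite in 0.89%. The share of promoters with none of the 7 was not computed, so how common such a window is stays unknown. Of the other matched genes, SLC2A1 had 2 GC boxes, 1 CCAAT box and a TATA box that began 31 bases before the start, SLC2A6 had 4 GC boxes and 2 CCAAT boxes, and SLC2A13 had 5 GC boxes, 1 CCAAT box, 1 E-box and 2 hypoxia response cores, both within that E-box as read on its 2 strands. A match of letters does not show that a factor bound there, and the lack of one says only that these letters are not in this window.

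The other 6 SLC2A carriers on the array showed no difference of 1.5-fold. Besides SLC2A14, the 1 that passed the brightness filter was SLC2A11, a class II carrier, which read 292.2 with DMSO and 277.2 with G-TPP. Its log2 difference of -0.08 turned to 0.01 after lowess centring. The fructose carrier gene SLC2A5 read 235.7 and 183.7, 1.28-fold lower, and the urate carrier gene SLC2A9 read 116.5 and 97.1, under the floor in both arrays. SLC2A7 at 112.0 and 107.6 and the liver and beta cell carrier gene SLC2A2 at 47.2 and 45.5 were also under the floor in both arrays. Over all 14 carriers 5 log2 differences were above 0, the median was -0.07, and SLC2A12 was the 1 at 2-fold. Of all genes past the filter, 2.8% were at least 2-fold higher and 0.55% at least 2-fold lower. At 1.5-fold these shares were 7.37% and 3.23%.

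**Figure D2:**
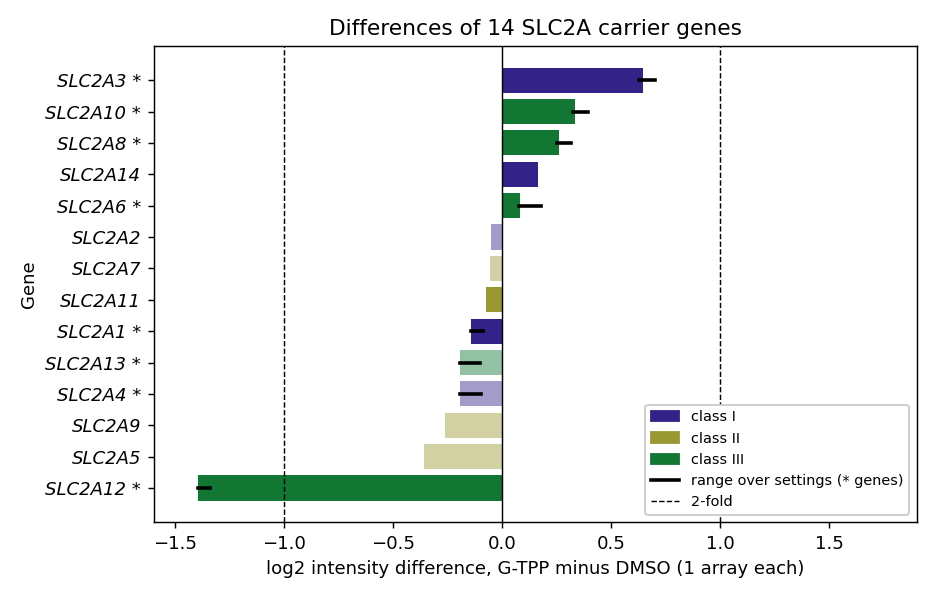
Bars give the log2 intensity difference (G-TPP minus DMSO, 1 array each) of the 14 SLC2A carrier genes, coloured by class, with pale bars for genes under the brightness filter and dashed lines at 2-fold. Black lines over the 8 starred genes span the values under the reported and 5 other settings, and no line crosses 0. Among these settings, the mean over probe sets cannot move a gene with 1 probe set. SLC2A12 at -1.40 is the 1 bar past 2-fold, and SLC2A3 at 0.65 is the highest.

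The members were also set among all named genes. The middle 95% of log2 differences of genes past the filter ran from -0.64 to 1.05, with a standard deviation across genes of 0.43. SLC2A12 lay below that range, and the other 5 members past the filter lay within it, SLC2A3 included. SLC2A1, SLC2A6, SLC2A8 and SLC2A10 ranked 3846, 7283, 8910 and 9334 from the lowest of the 11091, in the body of the distribution.

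**Figure D3:**
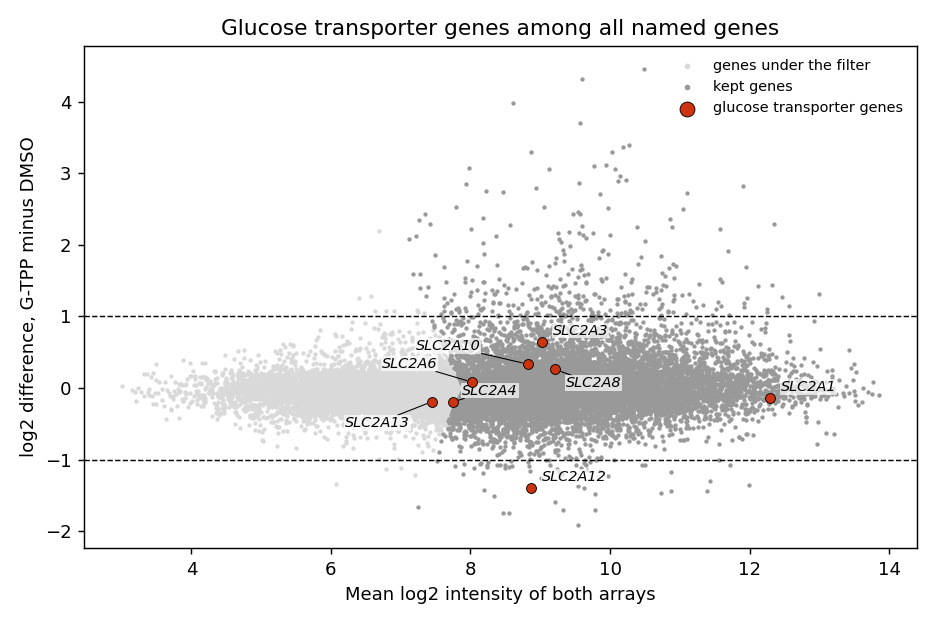
Each point is a named gene, with the mean log2 intensity of both arrays on the horizontal axis and the log2 difference (G-TPP minus DMSO) on the vertical axis. Grey points are the 11091 genes past the filter, pale points the dimmer genes, red points the 8 transporter genes, and dashed lines mark 2-fold. SLC2A12 lies below the cloud at -1.40, while SLC2A1 lies near 0 at the bright end.

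Genes around glucose transport were taken from lists drawn up for this purpose. Among other sugar carriers, the 9 genes included sodium-driven SLC5A and proton-driven SLC45A carriers, 5 passed the filter and none differed by 1.5-fold. Of all genes past the filter, 7.37% were at least 1.5-fold higher and 3.23% at least 1.5-fold lower. SLC45A1, a brain sugar carrier, was 1.30-fold lower and its relative SLC45A4 was 1.19-fold higher by one probe set, with a log2 difference of -0.01 by the other. SLC50A1, the human SWEET sugar efflux carrier, read 1029 with DMSO and 1152 with G-TPP, and SLC5A10, a sodium-driven carrier, had a log2 difference of 0.05. Of 8 genes for inositol and ascorbate handling, which share substrates with HMIT and GLUT10, 6 passed and none reached 1.5-fold. SLC5A3, the sodium-coupled inositol carrier, read 1400 and 1373, and the ascorbate carrier gene SLC23A2 read 910.6 and 847.0. The inositol phosphatase genes IMPA2 and IMPA1 had log2 differences of -0.18 and 0.08, and MIOX, the oxygenase that breaks down inositol, one of -0.10.

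Enzymes that use the incoming glucose lay close to 0. Of 26 genes for glucose phosphorylation and glycolysis, 23 were on the array with a probe set of 1 symbol, 20 passed the filter and none differed by 2-fold. Their median log2 difference was -0.09, with 3 above 0 (3 to 7 over the settings tried) and 17 below, beside a median of -0.04 with 44.0% above 0 over all genes past the filter. PFKM, the muscle-type phosphofructokinase, was 1.52-fold lower, at 1521 and 1000.3, and was the 1 gene of the list past 1.5-fold. Over all genes past the filter, 2.8% were at least 2-fold higher and 0.55% at least 2-fold lower. At 1.5-fold the shares were 7.37% higher and 3.23% lower, so nothing is read from these counts. The hexokinase genes HK1 and HK2, whose products trap glucose as its phosphate, had log2 differences of -0.05 and -0.06, and that of HK1 changed sign, to 0.004, when differences were centred on their median. LDHA, the lactate dehydrogenase of glycolytic cells, was 1.22-fold lower, at 1193 and 979.5. PFKFB4, which sets the level of an activator of phosphofructokinase, was also 1.22-fold lower, and the enolase gene ENO2 was 1.18-fold lower. PFKFB4 read 261.4 with DMSO and 213.9 with G-TPP, the latter under the filter. For lactate export 2 genes passed the filter, and BSG, which escorts monocarboxylate carriers to the membrane, read 5217 and 4931, while the lactate carrier gene SLC16A8 had a log2 difference of -0.11.

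Of 28 genes for the traffic of glucose carriers, 25 were on the array and all 25 passed the filter. The 1 past 2-fold in either direction was TXNIP, an arrestin-like protein that binds GLUT1 and promotes its uptake into endosomes. It read 4258 with DMSO and 2125 with G-TPP, 2.004-fold lower. It sits at the threshold, and 3 of 5 other settings put it under 2-fold, with log2 differences from -1.01 to -0.95. Its relatives ARRDC3, at 1229 and 1578, and ARRDC4, with a log2 difference of -0.11, did not reach 1.5-fold. The clathrin adaptor subunit gene AP2M1 was 1.29-fold lower, and RAB14, a GTPase of endosomes, was 1.26-fold lower. The list's median log2 difference was -0.06, with 10 above 0 (10 to 12 over the settings tried) and 15 below. That is close to all genes past the filter, with a median of -0.04 and 44.0% above 0. Of all genes past the filter, 2.8% were at least 2-fold higher and 0.55% at least 2-fold lower. Nothing is read from the count of 1 gene in this list.

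Of 20 signalling genes upstream of glucose carriers, 17 were on the array and passed the filter. Their median log2 difference was 0.15, with 12 above 0 (11 to 14 over the settings tried). Over all genes past the filter the median was -0.04 and 44.0% were above 0. Of all genes past the filter, 2.8% were at least 2-fold higher and 0.55% at least 2-fold lower. PRKAB2, a beta subunit of the energy-sensing kinase AMPK, read 1317 with DMSO and 2756 with G-TPP, which is 2.09-fold higher, and was the 1 past 2-fold. The other beta subunit gene, PRKAB1, was 1.36-fold higher, whereas the catalytic subunit gene PRKAA1 was 1.37-fold lower. SGK1, a kinase related to AKT, was 1.52-fold higher, at 227.5 and 346.1, with its DMSO reading under the filter.

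Of 17 genes for transcription factors tied to SLC2A genes, 15 passed the filter, with 9 above 0 and a median log2 difference of 0.25. All genes past the filter had 44.0% above 0 and a median of -0.04. ATF4, a factor of the integrated stress response, was 2.33-fold higher by its probe set with the higher mean intensity, at 1255 and 2919, but its other probe set read 1785 and 1327, a log2 difference of -0.43. NFE2L2, which encodes NRF2, was 1.75-fold higher, and SP1, the founding GC box factor, was 1.52-fold higher. THRA, a thyroid hormone receptor, was 1.79-fold lower. HIF1A, the hypoxia factor that drives SLC2A1 and SLC2A3, had a log2 difference of 0.07, and MYC one of -0.15.

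**Figure D4:**
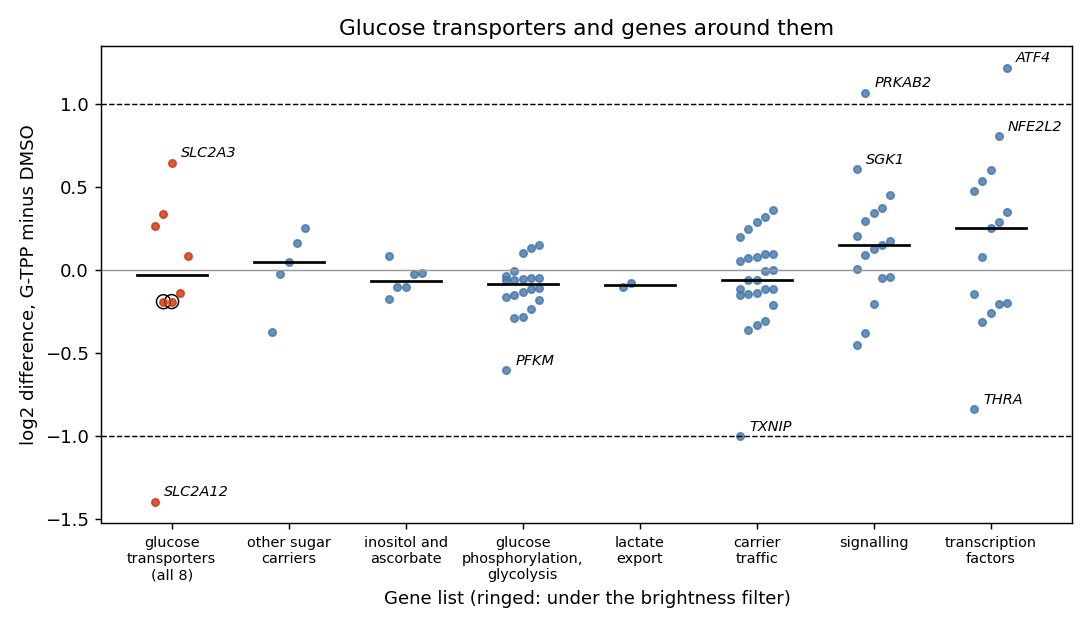
Points give the log2 difference (G-TPP minus DMSO, 1 array each) of the 8 transporter genes (red, ringed where under the brightness filter) and of genes past the filter in 7 lists (blue), with a black bar at each median and dashed lines at 2-fold. SLC2A12 is lower than every plotted gene of the lists, TXNIP lies on the lower line, and PRKAB2 and ATF4 lie above the upper line.

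The arrays as a whole had median intensities of 224.8 with DMSO and 215.5 with G-TPP over 33297 probe sets. Of 14 markers of glial and glioma cells 11 passed the filter, with VIM at 7146 and 6494 and CD44 at 8013 and 7614, while GFAP, with a log2 difference of -0.08, lay near the filter. These 11 pointed both ways, with 4 above 0, 7 below and a median log2 difference of -0.08. All genes past the filter had 44.0% above 0 and a median of -0.04. SLC1A3, a glutamate carrier gene of astrocytes, was 1.56-fold higher, while PDGFRA and SOX2 were 3.25-fold and 2.72-fold lower. SOX9 was 1.98-fold lower and NES 1.42-fold lower. Of the 11, 2 (2 to 3 over the settings tried) were at least 2-fold lower and 0 at least 2-fold higher. Over all genes past the filter those shares were 0.55% and 2.8%. The summed intensity of all 14 was 26333 with DMSO and 21300 with G-TPP, and the part of these markers in the SLC2A12 difference was not tested. Of markers of other cells, 2 of 8 immune, 2 of 6 endothelial, 2 of 6 neuronal and 1 of 4 erythroid and liver genes passed the filter. None of them differed by 1.5-fold, beside 7.37% of all genes past the filter that were higher and 3.23% lower by as much.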

How the data were processed

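RNA of 1 DMSO culture and 1 G-TPP culture of U251 cells was hybridised to Affymetrix arrays, and groups follow the agent in the labels. The authors deposited linear intensities, 1 for every probe set in each array, made with RMA in Affymetrix Expression Console 1.1.2, per the submitters' processing notes. RMA corrects background, aligns the distributions of arrays and summarises probes, so a change in total RNA per cell is not visible. The set of arrays in that run and the step back from log2 are not stated in the labels. The number of arrays limits the precision.

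Of 33297 probe sets, 19460 had 1 gene symbol in the platform annotation, 1754 had several and 12083 were not listed there. Symbols were updated by gene ID through the RefSeq table of GRCh38.p14, which held 19429 of the 19460. For 769 genes with more than 1 probe set, the probe set brightest on average stood for the gene. Deposited intensities were put on the log2 scale without a pseudocount, and genes were counted by size (2-fold or 1.5-fold), with the filter at the median over probe sets of the brighter array. The floor is the 95th percentile of olfactory receptors in each array.

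The members and lists were chosen with earlier results of these data known. Genes named are the SLC2A carriers, up to 4 genes per list around glucose transport with the largest absolute difference past the filter, a fixed set (TXNIP, HK1, HK2, SLC5A3, HIF1A, MYC), and the 3 genes nearest in log2 intensity to the highest and the lowest member; ARRDC4, the neighbouring genes and the markers were named after their values were seen. SLC16A1 and SLC16A3 were not analysed here. Other settings were median centring, lowess centring (span 0.3), quantile normalization, log2 of intensity plus 16 and the mean over probe sets. The procedure was also run on simulated data. Its outcome is not reported here, so nothing about the size or reliability of the differences above is read from that run. Work was done in Python 3.11.15 (statsmodels 0.14.6, pandas 2.3.3, numpy 2.4.6), with figures from matplotlib 3.10.9.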

Additional observations from a re-analysis of the deposited data

How the results depend on the processing

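All 8 transporter genes kept the sign of their log2 difference under the 5 other settings of scaling, pseudocount and probe set choice. All 40 values moved by less than 0.19, the standard deviation of the olfactory receptors. Each of these genes has 1 probe set, so the mean over probe sets could not move its value. That setting adds no check here, and the statement rests on the other settings. SLC2A12 ranged from -1.40 to -1.34 and SLC2A3 from 0.63 to 0.70. The median over the 8 genes, -0.03 as reported, did not keep its sign. It was 0.02 with median centring, 0.04 with lowess centring and 0.001 with quantile normalization, so its direction is not established. Under these settings, without a brightness filter and at the 75th percentile filter, 1 gene was at least 2-fold lower and 0 at least 2-fold higher. SLC2A12 passed the 75th percentile filter of 681.4 through its DMSO reading of 756.6 alone, as its G-TPP reading was 287.2. Its place past that filter is therefore no separate check of its difference. At a threshold of 1.5-fold, 1 was higher, and at 3-fold 0 were lower. The median over the 6 members past the filter was 0.17, and over the 2 past the 75th percentile filter, SLC2A1 and SLC2A12, it was -0.77; both differ from -0.03 because fewer genes enter. The medians of the lists around glucose transport kept their sign under these settings; that of class II carriers, which rests on SLC2A11 past the filter, ran from -0.08 to 0.01. Among the genes outside the family, ATF4 averaged over both probe sets had a log2 difference of 0.40, below 2-fold. No paired analysis was possible because each group has 1 array, and leaving out a replicate was not possible for the same reason. Low signal limits SLC2A4 and SLC2A13, which were under the filter in both arrays.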

Other observations

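The nearest protein-coding genes on each side of the 8 transporter genes that are named on the array gave 16 neighbours, by their order in the RefSeq table of GRCh38.p14. Of these, 10 passed the brightness filter and 0 differed by 2-fold. Over all genes past the filter 2.8% were at least 2-fold higher and 0.55% at least 2-fold lower, so nothing is read from this count. SLC2A12 lies between TBPL1, a relative of the TATA-binding protein, and SGK1. TBPL1 read 2247 with DMSO and 2734 with G-TPP, which is 1.22-fold higher, and SGK1 was 1.52-fold higher. Both neighbours of the lowest member thus pointed the other way. SGK1 read 227.5 with DMSO, under the filter and 1.32 times the floor, so its fold carries little weight. GARNL3, next to SLC2A8, was 1.53-fold lower, at 303.4 and 198.5, while SLC2A8 itself was 1.199-fold higher. The G-TPP reading of GARNL3 was under the filter. FOXJ2, a forkhead factor gene beside SLC2A3, read 659.7 and 664.0. The neighbours were looked up after the members' values were known.

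The genes nearest to a member in the pair of log2 intensities over the 2 arrays were also listed, with the Euclidean distance as the measure of likeness. For SLC2A3 they were ERN1, the endoplasmic reticulum stress sensor IRE1 alpha (distance 0.04, 425.1 with DMSO and 639.8 with G-TPP), TANK, an adaptor of innate immune signalling (0.05), and the zinc finger gene ZNF473 (0.05). For SLC2A12 they were the small nucleolar RNA SNORD4A (0.17, 690.9 and 308.7), SLC16A14, an orphan member of the monocarboxylate carrier family (0.22, 665.1 and 313.5), and the small nucleolar RNA SNORD50A (0.23, 800.3 and 334.0). With 2 arrays this likeness says only that the probe sets read alike.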
